A study of Mus musculus with 5 samples.

Results

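The genes described here lie on both sides of Myod1 on mouse chromosome 7, the chromosome that carries the altered MyoD allele of these animals. They are 43 listed genes, chosen by their place near Myod1 and taken with all their probes by gene symbol. Of the 10474 genes tested on these arrays, 31 belong to the list. Gene expression was measured on Illumina mouse bead arrays in 5 end-stage medulloblastomas, tumours of the cerebellum. SmoA2, an active mutant of Smoothened, which transduces the hedgehog signal, is in all 5 tumours, controls included. Of these tumours, 3 were MyoD+/+;SmoA2 (called MyoD+/+ below) and 2 were MyoD+/-;SmoA2 (MyoD+/-), with 1 array each. The labels give only the end-stage time point and the genotype. The promoter behind SmoA2, the strain, the way the MyoD allele was made, and whether each tumour came from its own mouse are not given in the sources used here. The p-values therefore cover only the scatter among these 5 samples, which may be partly technical.

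Myod1 encodes MyoD, a basic helix-loop-helix transcription factor that starts muscle differentiation and binds the E-box, a short DNA motif. A gene altered in mice is inherited together with the DNA around it. Transcripts of its chromosomal neighbours can therefore be measured beside the transcript of the altered gene itself. The neighbours are unlike each other in function. They include potassium channel subunits, metabolic enzymes such as the A subunit of lactate dehydrogenase (Ldha), proteins of membrane traffic such as the ESCRT subunit Tsg101, and transcription and chromatin factors such as the TFIIH subunit Gtf2h1.

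Signals were background-corrected, normalized between arrays and put on a log2 scale, called the level below. A difference is the mean MyoD+/- level minus the mean MyoD+/+ level, given with its standard error (SE) from limma, a linear model fitted to all 10474 genes. A gene was called at an adjusted p under 0.05. A gene counts as non-overlapping when both MyoD+/- tumours lie on the same side of all 3 MyoD+/+ tumours. Each array detected between 37.0% and 39.9% of its 45281 probes. Of 15 granule neuron precursor markers, 10 were tested, with a median level between 9.79 and 10.49 in each tumour, while Atoh1, Gli1, Mycn and Pax6 were detected on 0 of the 5 arrays. Of 12 tested oligodendrocyte markers, 11 had a lower mean in MyoD+/-, with a median difference of -0.72, and 0 passed the adjusted threshold.

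In RefSeq gene order, 26 of the neighbours come before Myod1 and 17 after it. The outermost are Ruvbl2, 42 protein-coding genes before, and Prmt3, 40 after. Probes were present for 42 of the 43 genes, 77 probes in all, and Htatip2 was not analysed here. The filter, a detection p under 0.05 on at least 2 arrays, kept 41 probes of 31 genes, of which 23 were detected on all 5 arrays. The inner-ear genes Ush1c and Otog, the potassium channel genes Kcnj11 and Kcnj14, the serotonin synthesis gene Tph1, Kdelr1, Syngr4 and Nav2 were detected on 0 of the 5 arrays. The glycogen synthase gene Gys1, the fucosyltransferase gene Fut2 and Spty2d1 were detected on 1. Missing the filter does not show that a transcript was missing. Kdelr1, which encodes a receptor that returns resident proteins to the endoplasmic reticulum, is among these 11 untested genes although most cells use it.

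Myod1 itself was detected in all 5 tumours. MyoD+/+ tumours read 7.25, 6.38 and 7.08, and MyoD+/- tumours 6.31 and 6.67. MyoD+/+ tumour 2 lay among the MyoD+/- values, so the groups overlapped. MyoD+/- minus MyoD+/+ came to -0.41 ± 0.28 (SE, n = 3 and 2; adjusted p = 0.957 in limma), and to -0.67 without MyoD+/+ tumour 2. It was -0.23 without MyoD+/+ tumour 1 or without MyoD+/- tumour 1, and -0.20 without background correction. The sources used here do not place the Myod1 probe inside or outside the altered stretch of the allele, and the genotype labels are therefore not checked by it.

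Among the neighbours, no gene passed the test and the differences went both ways. Of the 31 tested, 15 were above and 16 below the MyoD+/+ mean, with differences from -0.87 (Car11) to 0.48 (Ptpn5). The count past an adjusted p of 0.05 in limma was 0, as it was over all genes (0%). At an unadjusted p under 0.05 there were 2 neighbours (6.45%), against 5.26% of all genes tested. Both were lower in the MyoD+/- tumours, a direction that held 2.77% of all genes. By the same count over every kept probe, 2 of 41 neighbour probes and 5.2% of 18675 probes were under 0.05.

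**Figure D1:**
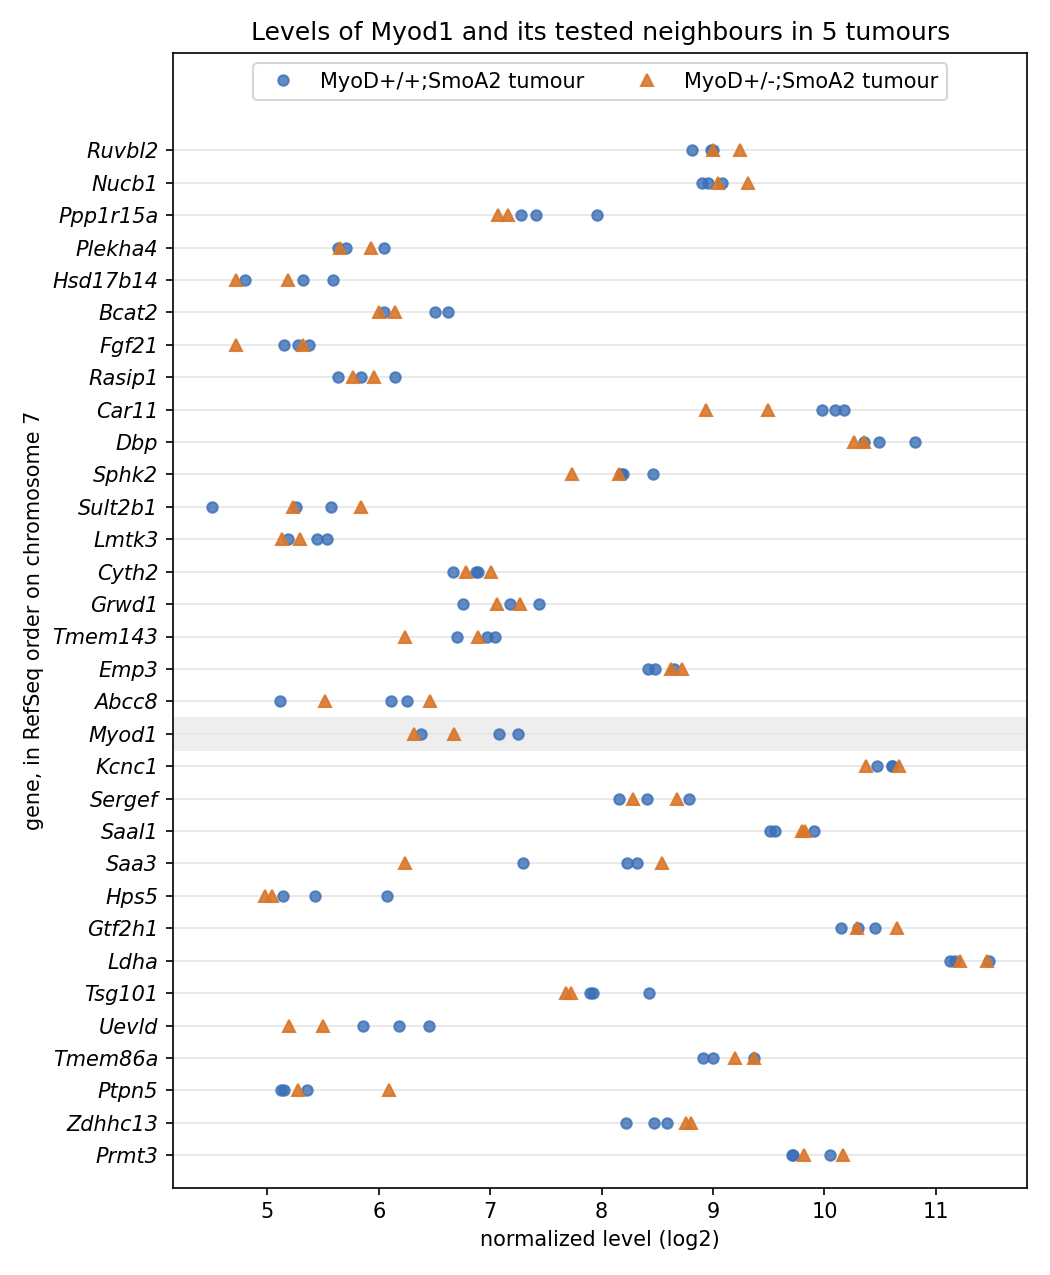
Levels of Myod1 and the 31 tested neighbours in each tumour, on the normalized log2 scale. Circles are the 3 MyoD+/+ tumours and triangles the 2 MyoD+/- tumours, and genes run down the axis in RefSeq order with Myod1 shaded. Both triangles of Car11 and Uevld lie clear of the circles, while most genes overlap.

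The neighbour with the smallest p was Car11, which encodes a carbonic anhydrase-related protein found mainly in brain. MyoD+/+ tumours read 10.10, 9.98 and 10.17, and MyoD+/- tumours 8.94 and 9.50. The MyoD+/+ tumours lay close together, and both MyoD+/- tumours were below them by at least 0.48. The difference was -0.87 ± 0.21 (SE, n = 3 and 2), a 1.82-fold lower mean, with a 95% interval from -1.36 to -0.37 and a limma adjusted p of 0.911, so it did not pass. Leaving out each tumour in turn gave between -1.14 and -0.59. In bulk tumour RNA, fewer cells of a type and less RNA per cell cannot be told apart. The part of the lower oligodendrocyte markers in this value was not tested.

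Uevld, which encodes a ubiquitin-conjugating enzyme variant joined to a lactate and malate dehydrogenase-like domain, was the other. MyoD+/+ tumours read 6.19, 6.45 and 5.86, and MyoD+/- tumours 5.20 and 5.50. It was detected in all 3 MyoD+/+ tumours and in MyoD+/- tumour 2, and missed detection in MyoD+/- tumour 1. The difference was -0.81 ± 0.22 (SE; 95% interval -1.34 to -0.29; adjusted p = 0.911 in limma). Uevld is dim on these arrays, and its difference depended on the background step: it was -0.50 with a larger added offset and -0.26 without background correction. Car11 moved less under the same changes, to -0.83 and -0.75.

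The RefSeq sequence before the start of each gene is shown because these 2 genes had the smallest p of the list, and because an E-box is the motif that MyoD binds. Each line gives 250 bases up to a RefSeq start (build GRCm38.p6, 5′ to 3′ on the strand of the gene), with every CANNTG in capitals. Car11 lies on the plus strand at chr7:45699554-45699803 and Uevld on the minus strand at chr7:46958519-46958768.
Car11: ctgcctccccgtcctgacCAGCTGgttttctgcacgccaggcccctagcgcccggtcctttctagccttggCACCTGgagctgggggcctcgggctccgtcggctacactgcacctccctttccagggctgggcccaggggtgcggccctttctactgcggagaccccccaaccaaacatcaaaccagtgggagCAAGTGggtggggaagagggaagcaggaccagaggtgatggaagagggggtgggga
Uevld: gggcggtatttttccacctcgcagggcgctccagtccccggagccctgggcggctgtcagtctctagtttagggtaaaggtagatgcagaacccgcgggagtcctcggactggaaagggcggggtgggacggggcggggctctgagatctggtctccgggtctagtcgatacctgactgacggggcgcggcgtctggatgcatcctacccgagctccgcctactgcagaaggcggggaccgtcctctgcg

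The Car11 window holds 3 such E-boxes and the Uevld window 0. A second RefSeq start of Car11 has a window that overlaps this one, and the 1 E-box in it is the third of these 3. The first of the 3 is CAGCTG, a form that MyoD favours. Each motif reads alike on both strands, and the narrower motif is always an instance of the wider. The narrower one is present in at least 1 window of 7 of the 34 neighbours in the RefSeq table (20.6%) and of 14.7% of all 27025 genes in it. The wider is present in 73.5% and 69.3%. A match describes letters and is no evidence of binding, and a window without one says nothing about the factor.

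Counted by groups that do not overlap, 8 of the 31 neighbours (25.8%) separated the genotypes, against 20.9% of all genes. The 6 that were lower in MyoD+/- were Car11, Uevld, Tsg101, Hps5, Ppp1r15a and Sphk2, where 10.9% of all genes did so. The 2 that were higher were Zdhhc13 and Ruvbl2, where 10% did so. None of the 6 beside Car11 and Uevld had an unadjusted p under 0.05 in limma.

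Tsg101, an ESCRT subunit that sorts ubiquitinated cargo at endosomes, is next to Uevld in RefSeq order. MyoD+/+ tumours read 7.92, 8.42 and 7.90, and MyoD+/- tumours 7.72 and 7.68. The gap between the groups was 0.17, and the difference was -0.38 ± 0.21 (SE; limma adjusted p = 0.945), or -0.21 without MyoD+/+ tumour 2. Both proteins belong to the family of ubiquitin-conjugating enzyme variants. Whether their probes can also bind the other transcript was not tested.

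Hps5, a subunit of a complex that builds lysosome-related organelles, stood at 5.14, 6.07 and 5.43 in MyoD+/+ and at 5.04 and 4.98 in MyoD+/-. This probe was detected in MyoD+/+ tumours 2 and 3 and in 0 of the 2 MyoD+/- tumours. Another Hps5 probe, below the filter, was detected in 1 MyoD+/- tumour and in 0 MyoD+/+ tumours, so the probes do not place the gene below background in either genotype. The tested probe differed by -0.54 ± 0.28 (SE; adjusted p = 0.945 in limma). The value rested on MyoD+/+ tumour 2 and on the background step: it was -0.28 without that tumour and -0.16 without background correction.

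Ppp1r15a, also called GADD34, a stress-induced subunit that directs protein phosphatase 1 to a translation factor, stood at 7.28, 7.41 and 7.96 in the MyoD+/+ tumours. Both MyoD+/- tumours were below these, at 7.07 and 7.16, and the means differed by -0.43 ± 0.23 (SE; limma adjusted p = 0.945). The gap between the groups was 0.12. MyoD+/+ tumour 3 stood apart above, and without it Ppp1r15a differed by -0.23. Sphk2, a sphingosine kinase, was 8.18, 8.46 and 8.19 in MyoD+/+ and 8.16 and 7.74 in MyoD+/-. Its groups were separated by only 0.017, with a difference of -0.33 ± 0.20 (SE). Leaving out MyoD+/- tumour 2 gave -0.12, and leaving out MyoD+/- tumour 1 gave -0.54. Its other detected probe was non-overlapping as well, at -0.20 ± 0.17.

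Zdhhc13, a palmitoyltransferase of the Golgi, had the larger difference of the 2 higher genes. MyoD+/+ tumours read 8.47, 8.22 and 8.58, and MyoD+/- tumours 8.80 and 8.76, a gap of 0.18. The difference was 0.36 ± 0.18 (SE; limma adjusted p = 0.945), and its other detected probe gave 0.29 ± 0.22 with groups that overlapped. Ruvbl2, an ATPase of chromatin remodelling complexes, was 8.81, 8.99 and 9.001 in MyoD+/+ and 9.24 and 9.004 in MyoD+/-. Its groups were 0.003 apart, far less than the spread within either, with a difference of 0.19 ± 0.17 (SE), or 0.072 without MyoD+/- tumour 1.

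The other tested neighbours overlapped between genotypes and are given by role. Among potassium channel genes, Kcnc1, the voltage-gated Kv3.1 channel of cerebellar neurons, lies directly after Myod1. MyoD+/+ tumours read 10.60, 10.48 and 10.61, and MyoD+/- tumours 10.67 and 10.37. It had the narrowest range over the 5 tumours of all tested neighbours, 0.30, and its difference was -0.04 ± 0.17 (SE), with a 95% interval from -0.45 to 0.37. Its second probe, dimmer, gave -0.23 ± 0.38. Abcc8, the sulfonylurea receptor that pairs with Kcnj11 in the ATP-sensitive potassium channel, ranged from 5.11 to 6.46 and differed by 0.16 ± 0.41.

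Of the 8 metabolic enzyme and hormone genes tested, 3 were higher and 5 lower, with a median difference of -0.27. Ldha, which converts pyruvate to lactate, stood at 11.17, 11.12 and 11.47 in MyoD+/+ and at 11.46 and 11.22 in MyoD+/-. These values interleave, and the difference was 0.08 ± 0.19 (SE). Bcat2, the mitochondrial branched-chain aminotransferase, differed by -0.32 ± 0.22 and the hormone gene Fgf21 by -0.25 ± 0.22, the latter detected on only 2 arrays. The steroid dehydrogenase gene Hsd17b14 differed by -0.28 ± 0.27, the sterol sulfotransferase gene Sult2b1 by 0.42 ± 0.34 and the lysoplasmalogenase gene Tmem86a by 0.19 ± 0.20.

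Of the 6 membrane traffic genes tested, 3 were higher and 3 lower, with a median difference of -0.14, and the non-overlapping Tsg101, Uevld, Hps5 and Zdhhc13 are 4 of them. Over all genes 20.9% were non-overlapping, and no test was made on this group of 6. The Golgi calcium-binding protein gene Nucb1 differed by 0.20 ± 0.17 and the Arf exchange factor gene Cyth2 by 0.09 ± 0.17. Of the 8 genes of transcription, chromatin and stress response, 6 were higher and 2 lower, with a median of 0.10. Dbp, a clock-controlled transcription factor, was 10.49, 10.81 and 10.36 in MyoD+/+ and 10.27 and 10.36 in MyoD+/-. MyoD+/+ tumour 3 fell between the MyoD+/- tumours by a margin of 0.004, and the difference was -0.24 ± 0.19 (SE). Gtf2h1 differed by 0.17 ± 0.19, the arginine methyltransferase gene Prmt3 by 0.17 ± 0.20, Saal1 by 0.15 ± 0.19, the ribosome assembly gene Grwd1 by 0.05 ± 0.23 and Sergef by 0.03 ± 0.24. Sergef, by its name a secretion-regulating exchange factor, was counted here and not under membrane traffic. The counts of both groups depend on that placement.

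Of the 7 genes of signalling, adhesion and other roles, 2 were higher and 5 lower, with a median of -0.01. Saa3, an acute-phase serum amyloid gene of inflamed tissue, was the most variable neighbour. It stood at 8.23, 8.32 and 7.29 in MyoD+/+ and at 8.54 and 6.23 in MyoD+/-, so the 2 MyoD+/- tumours held both the highest and the lowest value. Its difference of -0.56 ± 0.64 (SE) became 0.59 when MyoD+/- tumour 2 was left out and -1.71 when MyoD+/- tumour 1 was. Ptpn5, a neuronal tyrosine phosphatase, was detected in 1 MyoD+/+ and both MyoD+/- tumours and differed by 0.48 ± 0.26. MyoD+/- tumour 1 stood at 6.10 and the other 4 tumours between 5.12 and 5.35, and without tumour 1 the difference was 0.070. Tmem143 read 7.05, 6.97 and 6.703 in MyoD+/+ and 6.24 and 6.89 in MyoD+/-, and differed by -0.34 ± 0.24. MyoD+/- tumour 1 carried this value, which was -0.011 without it and -0.67 when MyoD+/- tumour 2 was left out. Its other detected probe gave -0.35 ± 0.24. Emp3 differed by 0.15 ± 0.17 and 0.25 ± 0.21. Lmtk3 (-0.18 ± 0.18), the endothelial gene Rasip1 (-0.01 ± 0.20) and Plekha4 (-0.004 ± 0.20) lay nearer to 0.

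**Figure D2:**
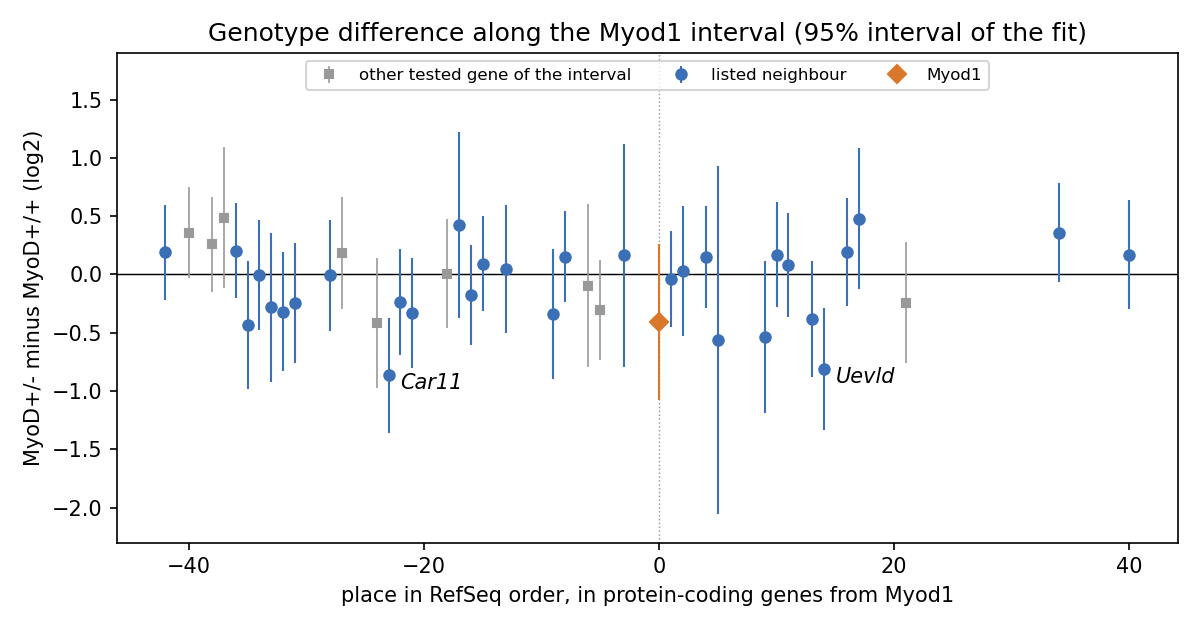
Difference between genotypes (MyoD+/- minus MyoD+/+, log2) against place in RefSeq order, counted in protein-coding genes from Myod1. Points are estimates and bars 95% intervals of the fit; circles are listed neighbours, squares the other tested genes of the interval and the diamond Myod1. Values above and below 0 occur before and after Myod1, and Car11 at -0.87 and Uevld at -0.81 are the lowest.

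The side of Myod1 on which a neighbour lies did not sort the differences by sign. Before Myod1, 7 of 18 tested neighbours were higher and 11 lower, with a median difference of -0.09, and 4 were non-overlapping. After it, 8 of 13 were higher and 5 lower, with a median of 0.08, and again 4 were non-overlapping. The non-overlapping genes were 22.2% before and 30.8% after, against 20.9% of all genes tested, and these shares were not compared by a test. Car11 is 23 protein-coding genes before Myod1 and Uevld 14 after it. The 5 tested neighbours nearest on the side before (Grwd1, Tmem143, Emp3, Abcc8 and Cyth2) ranged from -0.34 to 0.16, and 0 were non-overlapping. The nearest 5 after (Kcnc1, Sergef, Saal1, Saa3 and Hps5) ranged from -0.56 to 0.15, and 1 was non-overlapping. Within 10 protein-coding genes on either side, listed or not, 11 genes were tested and 0 had an unadjusted p under 0.05 in limma. Within 25 genes the count was 2 of 26 (7.69%), and within 100 genes 4 of 100 (4.0%), against 5.26% of all genes tested. Of the 26 genes, 12 were higher and 14 lower, and all 6 non-overlapping ones were lower. Over all genes 10.9% were non-overlapping and lower. Within 100 genes, 10 non-overlapping genes were higher and 13 lower.

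Some neighbours start head to head, so that the DNA before their starts is shared. The windows of Hps5 and Gtf2h1 overlap by 212 bases, those of Ruvbl2 and Gys1 by 126, and those of Ppp1r15a and Plekha4 by 61. Gys1 was not tested, and its partner Ruvbl2 was non-overlapping. In the other pairs the gene on the minus strand was non-overlapping and its partner was not. Over all genes 20.9% were non-overlapping. Hps5 differed by -0.54 and Gtf2h1 by 0.17, and Ppp1r15a by -0.43 and Plekha4 by -0.004. The difference between partners was not tested. The shared stretch of Hps5 and Gtf2h1 is shown because 2 neighbours of opposite sign start from it (GRCm38.p6, chr7:46795882-46796093, plus strand, CANNTG in capitals).
Hps5 and Gtf2h1: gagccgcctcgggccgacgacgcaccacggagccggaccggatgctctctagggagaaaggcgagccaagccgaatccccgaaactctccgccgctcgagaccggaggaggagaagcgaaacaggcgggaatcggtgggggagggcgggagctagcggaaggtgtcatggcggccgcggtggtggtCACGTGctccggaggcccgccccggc

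Compared with all genes tested, the neighbours had a like median difference and spread wider, mainly on the lower side. Their median difference was -0.004, against -0.003 over all 10474 genes. Their median absolute difference was 0.20 against 0.16, and their quartiles were -0.32 and 0.17 against -0.16 and 0.15. The median level of the tested neighbours was 7.92, 8.16 and 7.90 in MyoD+/+ and 7.72 and 7.16 in MyoD+/-. Over all genes it was between 7.67 and 7.69 in each tumour. Each neighbour median is the level of the 1 gene in the middle, Ppp1r15a in MyoD+/- tumour 2. This is a description of the list with no test. For 24 of the 31 neighbours (77.4%) the whole 95% interval was inside 2-fold, up or down, as it was for 87.7% of all genes. The exceptions were Car11, Uevld, Hps5, Saa3, Sult2b1, Abcc8 and Ptpn5. The offset added to the signals shrinks the differences of dim genes, and these bounds are on that scale.

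**Figure D3:**
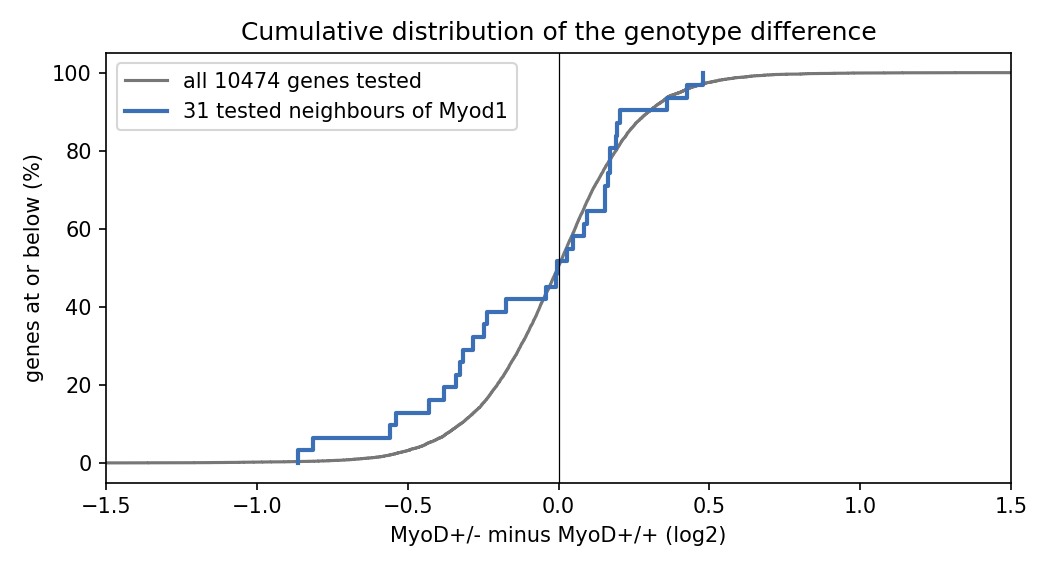
Cumulative share of genes (%) at or below each difference between genotypes (MyoD+/- minus MyoD+/+, log2), for the 31 tested neighbours and all 10474 genes tested. Both curves cross 0 near the middle, with medians of -0.004 and -0.003. Around the lower quartile, which is -0.32 against -0.16, the curve of the neighbours is above the other.

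More than 1 probe passed the filter for 9 neighbours, with 19 probes in all. The probes had the same sign in 7 of these genes and opposite signs in 2. Sult2b1 gave 0.42 ± 0.34 on its brightest probe and -0.10 ± 0.22 on another, and Saal1 gave 0.15 ± 0.19, 0.38 ± 0.17 and -0.01 ± 0.21. The second of these Saal1 probes was detected in both MyoD+/- tumours and in 0 of 3 MyoD+/+ tumours. Its levels were 4.78, 4.93 and 4.86 against 5.27 and 5.21, and its limma adjusted p was 0.947. Grwd1 differed by 0.37 ± 0.17 on its dimmer probe, with groups that did not overlap, and by 0.05 ± 0.24 on its brighter one in the same fit of single probes.

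**Figure D4:**
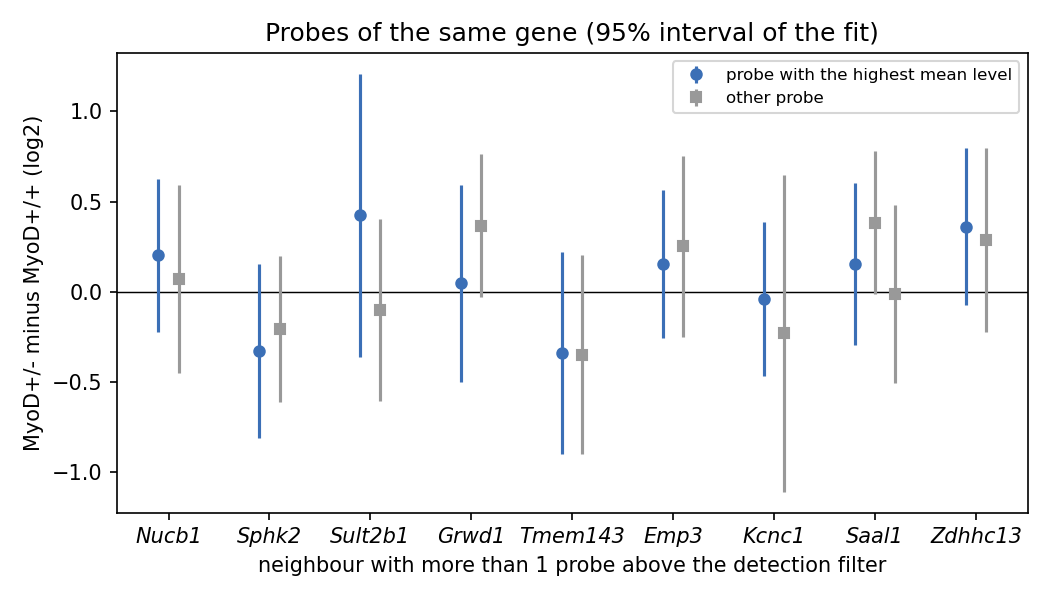
Difference between genotypes (MyoD+/- minus MyoD+/+, log2) for each kept probe of the 9 neighbours with more than 1. Circles are the probe with the highest mean level, squares the others, and bars 95% intervals of the fit to single probes. Every interval crosses 0, and the probes of Sult2b1 lie at 0.42 and -0.10.

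The interval from Ruvbl2 to Prmt3 holds 39 other protein-coding RefSeq genes, and 9 further genes of the interval were tested on these arrays. Of these, 5 were higher and 4 lower, and 0 had an unadjusted p under 0.05 in limma. The groups of 3 were non-overlapping (33.3%), against 20.9% of all genes tested. The 5 with the smallest p were Ftl1, Tulp2, Ntn5, Nomo1 and Dhdh. Ftl1, the ferritin light chain that stores iron, was 11.55, 11.50 and 11.60 in MyoD+/+ and 12.02 and 11.79 in MyoD+/-, a difference of 0.36 ± 0.17 (SE). Nomo1, of the endoplasmic reticulum membrane, differed by -0.30 ± 0.18, Dhdh by 0.26 ± 0.17 and Tulp2 by 0.49 ± 0.26. Ntn5, a netrin, was detected in 2 MyoD+/+ and 0 MyoD+/- tumours and differed by -0.42 ± 0.24 as measured. Over the rest of chromosome 7, 777 genes were tested, of which 41 had an unadjusted p under 0.05 (5.28%) and 164 were non-overlapping (21.1%).

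Markers of other cell types were read beside these values, and 0 of them passed the adjusted threshold. The summed signal separated the genotypes for oligodendrocytes and for fibroblasts and meninges. It overlapped for astrocytes, cerebellar neurons, microglia, endothelial and mural cells, and skeletal muscle. Of 12 tested endothelial and mural markers, 10 were lower and 2 higher. Of 5 tested skeletal muscle markers, 2 were higher and 3 lower. The muscle sums were 230 to 3291 in MyoD+/+ and 1803 to 4423 in MyoD+/-, lowest in MyoD+/+ tumour 2. Of 16 oligodendrocyte markers, 12 were tested, 11 of them lower in MyoD+/-, with 8 at an unadjusted p under 0.05 in limma and 0 past the adjusted threshold. Over all genes, 2.77% were lower at such a p. The summed normalized signal of the 12 was between 8825 and 12464.5 in MyoD+/+ and between 6720 and 6945 in MyoD+/-. Mbp, the brightest of them in the MyoD+/+ tumours, differed by -1.29, while Olig1 differed by -0.13 and Sox10 by 0.12. Aspa, Ermn and Olig2 were detected on 0 of the 5 arrays. Of 11 tested astrocyte markers, 9 were lower, with sums of 13386 to 18536 in MyoD+/+ and 13056 to 15908 in MyoD+/-, and Glul was detected on 0 arrays. Of the Purkinje cell and cerebellar neuron markers, 6 were tested and 5 were lower, with sums of 5106 to 10178 and 5345 to 6472, and Calb1, Car8 and Ppp1r17 were detected on 0 arrays. Of 13 tested markers of microglia and macrophages, 10 were higher, with sums of 4843 to 6379 and 6240 to 7235, and Itgam was detected on 0 arrays. Of 7 tested markers of fibroblasts and meninges, 5 were lower and 2 higher, and Col3a1 was detected on 0 arrays. Their sums were 4473 to 5430 in MyoD+/+ and 4158 to 4335 in MyoD+/-. A sum weighs bright markers most, and the brightest here was Igf2 (-0.49), whose own levels overlapped. Dcn differed by -0.04 and Lum by 0.37, so the separated sum does not describe each of these markers. The part of these cells in the lower values of Car11, Uevld and the other non-overlapping genes was not tested.

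**Figure D5:**
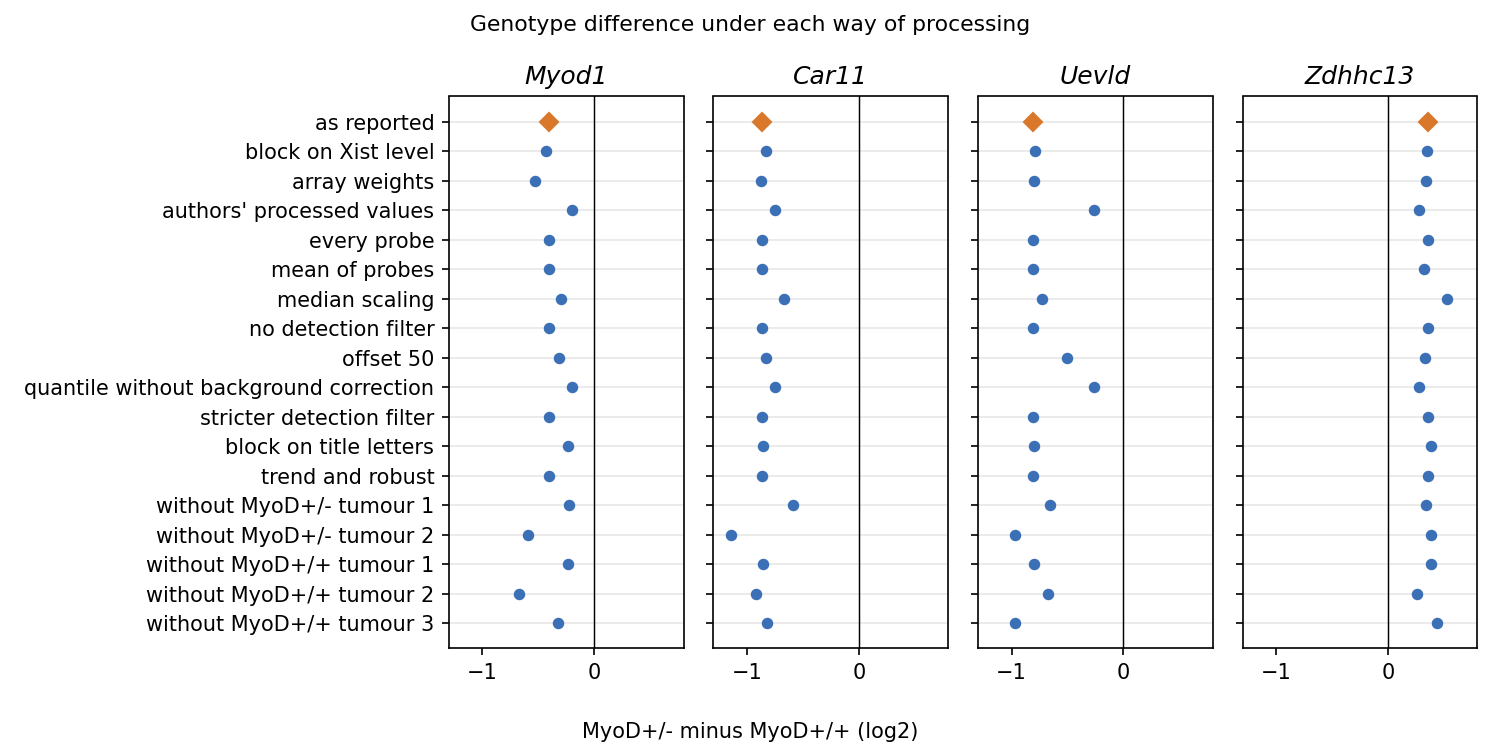
Difference between genotypes (MyoD+/- minus MyoD+/+, log2) for Myod1, Car11, Uevld and Zdhhc13 under each way of processing. Diamonds are the reported values and circles the alternatives. The sign of each of the 4 genes is the same throughout, while Uevld ranges from -0.97 to -0.26 and Car11 from -1.14 to -0.59. Car11, Uevld and Zdhhc13 have groups that do not overlap, so leaving out a tumour could not change their signs.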

How the data were processed

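RNA from 5 tumours was hybridised to 1 Illumina bead array each. The authors deposited probe signal intensities, which are not normalized per the file headers, and with each signal a detection p-value. The authors also deposited processed values on a log2 scale, which from their values are quantile-normalized signals without background correction (rank correlation 1 with the signals of each array; medians 7.17 in each column). Scanner and software are not given in the sources used here.

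Of 45281 probes, 34885 carried 1 gene symbol in the platform annotation, 18 carried several and 10378 had none here. By Entrez identifier, 34807 probes matched a RefSeq table (GRCm38.p6), with 0 symbols changed. That table gave gene order, and a RefSeq promoter table of the same build gave sequences. The files name no genome build.

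Signals were processed with neqc in limma 3.58.1 (R 4.3.3; offset 16, quantile normalization, log2). The 18675 probes detected (p under 0.05) on 2 or more arrays were kept. A gene was its kept probe with the highest mean level (10474 genes). Levels are not comparable between probes. Genotype was the only term (lmFit, eBayes, two-sided), with Benjamini-Hochberg adjustment over all genes. The fit was tested on simulated data.

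The members, roles, marker lists and tests were chosen with earlier results of these data known. All 43 members are accounted for. Values by tumour are given for Myod1, members at an unadjusted p under 0.05 or with non-overlapping groups, and the 3 with the highest level (Ldha, Kcnc1 and Dbp). Tumour values of Saa3, of Ptpn5, of Tmem143 and of the second Saal1 probe were added after they were seen. In the rest of the interval, the 5 genes of smallest p are named. The number of arrays limits the precision.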

Additional observations from a re-analysis of the deposited data

How the results depend on the processing

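No neighbour passed an adjusted p of 0.05 in limma under any of 17 alternatives. The signs of Car11, Uevld and the other 6 non-overlapping genes were the same in every alternative that tested them, and so was that of Myod1. For the non-overlapping genes, neither leaving out a tumour nor weighting arrays can change the sign. Those alternatives are therefore no test of it. Counts at an unadjusted p under 0.05 ranged from 2 to 4 when each tumour was left out in turn, with 4 without MyoD+/+ tumour 1 (5.05% of all genes) or without MyoD+/- tumour 2 (3.90%). Counts of non-overlapping neighbours then ranged from 10 to 19, with fewer tumours to separate, and were 15 and 19 of 31 without MyoD+/- tumours 1 and 2 (47.3% and 49.7% of all genes), and 12, 10 and 14 without MyoD+/+ tumours 1, 2 and 3 (34.3%, 33.8% and 34.9%). Fitting title letters as a replicate block gave 5 neighbours at an unadjusted p under 0.05 (8.39% of all genes). Those letters take MyoD+/+ tumour 1 out of the difference and are not stated to pair tumours; the tumours with V minus those with P correlated at r = 0.36 between genotypes across genes, which are not replicates.

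The median absolute difference of the neighbours was 0.19 to 0.28 with each tumour left out. It was 0.22 with array weights, 0.15 both with the authors' processed values and without background correction, 0.18 with an offset of 50, 0.31 with median scaling, 0.23 over every probe, 0.19 with no detection filter, 0.28 with the block on title letters and 0.24 over the whole interval. The same over all genes was 0.15, 0.09, 0.09, 0.12, 0.21, 0.16, 0.12, 0.18 and 0.16. Median scaling moved the median of all genes to 0.14 and that of the neighbours to 0.17, and Kcnc1 (0.17), Rasip1 (0.071) and Plekha4 (0.064) changed sign there, the last 2 to values below that shift. Rasip1 was 0.039 with a block on Xist level and 0.050 with array weights, and Plekha4 0.12 with the block on title letters.

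With each tumour left out, signs also changed for Fgf21 (-0.55 to 0.053), Rasip1 (-0.13 to 0.13), Grwd1 (-0.14 to 0.20), Gtf2h1 (-0.010 to 0.35), Ldha (-0.037 to 0.20), Prmt3 (-0.0031 to 0.34), Plekha4 (-0.14 to 0.14), Cyth2 (-0.019 to 0.20), Abcc8 (-0.31 to 0.64), Kcnc1 (-0.19 to 0.11), Sergef (-0.17 to 0.23) and Saa3 (-1.71 to 0.59). The cause was not tested. The stricter detection filter left 23 neighbours.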

Other observations

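The largest difference between genotypes on chromosome 7 lay outside the interval. Gdpd3, a phospholipid-metabolising enzyme, is 765 protein-coding genes after Myod1 in RefSeq order and differed by -2.70 (log2, MyoD+/- minus MyoD+/+), with a 95% interval from -3.42 to -1.99. Its adjusted p in limma was 0.398, so it did not pass the threshold. Gdpd3 was chosen for mention after its value was seen. No neighbour of Myod1 reached 1 log2 unit in either direction.

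Mamstr, a coactivator of the muscle transcription factors of the MEF2 family, lies 27 protein-coding genes before Myod1 and is not on the list. MyoD+/+ tumours read 6.86, 6.41 and 6.39, and MyoD+/- tumours 6.68 and 6.79, which overlap, and its difference was 0.19 ± 0.20 (SE). It was chosen for its role after its value was seen.

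Saa3 levels were closer within the letters of the sample titles than within the MyoD+/- genotype. The tumours with the letter V (MyoD+/+ tumour 2 and MyoD+/- tumour 1) stood at 8.32 and 8.54, those with P (MyoD+/+ tumour 3 and MyoD+/- tumour 2) at 7.29 and 6.23, and the tumour with AI at 8.23. The sources used here do not explain the letters, and the split was not tested.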
